A study of Mus musculus with 6 samples.

Results

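The genes described here make cholesterol and fatty acids or control the SREBP transcription factors that set their levels, and they were followed in cultured mouse dorsal root ganglion (DRG) neurons. They were chosen by name, as the 32 listed symbols of the mevalonate and sterol pathway, SREBP control, fatty acid synthesis and sterol transport, and all 32 were found among the 35976 genes of the count tables. DRGs from all lumbar levels of C57BL/6 mice of both sexes, aged 2 to 3 months, were dissociated and plated for 24 h in medium with 10% fetal bovine serum and growth factors, among them GDNF, which both groups received. Then 3 cultures received vehicle and 3 cultures received HC-HA/PTX3, a matrix complex purified from human amniotic membrane, at 15 µg/mL for another 24 h. The cultures were not sorted, and the labels do not say whether cultures of a group came from separate animals. The main fit takes same-numbered cultures as pairs. Its p-values therefore measure the spread of the change between 3 pairs of cultures, which may be partly technical. Serum carries cholesterol and fatty acids in lipoproteins, and both groups received it.

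Cells build cholesterol from acetyl-CoA through mevalonate, the isoprenoid farnesyl diphosphate, squalene and lanosterol. When sterol in the endoplasmic reticulum is low, SCAP carries the SREBP precursors to the Golgi, where proteases release fragments that enter the nucleus and raise transcription of the enzymes; when sterol is high, INSIG proteins hold SCAP back. In peripheral ganglia, myelinating and satellite glia are known for active lipid synthesis, and neurons receive part of their cholesterol from them.

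Vehicle libraries 1 to 3 held 42516054, 42617496 and 54117547 counts, and HC-HA/PTX3 libraries 1 to 3 held 37998071, 37434266 and 38420247. Levels are given in CPM, counts scaled to a common library size by TMM, and 1 CPM stood for 37.1 to 56.0 counts, so that a gene with no count could have a level of up to 0.0808 CPM (3 counts, counting error only). Treatment effects were fitted within same-numbered cultures by edgeR's quasi-likelihood test with the replicate number as a block, over the 18277 genes that passed its low-count filter; that the number marks a batch is an assumption, since the labels and methods do not say so. Calling a gene took a Benjamini-Hochberg adjusted p under 0.05 together with a log2 fold change beyond 0.5 in size, as the methods set it. All 32 genes passed the filter. A positive fold change means a higher level with HC-HA/PTX3.

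To compare levels between genes, CPM was divided by the length of all annotated exons of a gene in kilobases. In vehicle cultures the stearoyl-CoA desaturases, which put the first double bond into saturated fatty acids, stood highest, with Scd2 at 243 ± 108 CPM per kb and Scd1 at 131 ± 63.2 CPM per kb (SD, n = 3). Vehicle replicates 1, 2 and 3 were at 347, 250 and 132 CPM per kb for Scd2 and at 196, 128 and 69.5 CPM per kb for Scd1, so that the ranges over cultures overlapped while Scd2 was above Scd1 within each culture. The same order held in HC-HA/PTX3 replicates 1, 2 and 3, with 333, 228 and 154 CPM per kb for Scd2 and 168, 107 and 65.3 CPM per kb for Scd1. Hmgcs1, the enzyme that makes HMG-CoA, followed at 87.0 ± 25.1 CPM per kb, and Acly, which makes cytosolic acetyl-CoA from citrate, at 80.3 ± 10.0 CPM per kb; their ranges overlapped, and Acly was above Hmgcs1 in vehicle replicate 3. The cholesterol exporter Abca1 stood at 46.8 ± 12.2 CPM per kb and fatty acid synthase, Fasn, at 37.3 ± 5.00 CPM per kb. At the low end were the sterol reductase Tm7sf2 at 2.75 ± 0.480 CPM per kb, lanosterol synthase, Lss, at 3.57 ± 1.48 CPM per kb and the isomerase Idi1 at 5.01 ± 1.10 CPM per kb, but their order depended on the length used. Per kilobase of the longest coding transcript, a length added after these values had been seen, Idi1 was lowest at 5.80 ± 1.27 CPM per kb, followed by Insig2 at 7.35 ± 0.236, Tm7sf2 at 8.08 ± 1.41 and Lss at 8.25 ± 3.43 CPM per kb. The means of Scd2, Scd1, Hmgcs1 and Acly were highest in the same order on that length, at 243, 133, 115 and 95.8 CPM per kb, but in replicate 3 of both groups Scd1 was below Hmgcs1 and Acly. Summed over the 32 genes, the level was 5410 ± 1491 CPM in vehicle cultures and 5287 ± 1314 CPM in HC-HA/PTX3 cultures. Within same-numbered pairs 1, 2 and 3 the log2 ratio of the treated to the vehicle sum was -0.033, -0.10 and 0.065. The direction thus differed between pairs. Scd2 alone made up 24.6% of the vehicle sum and Scd1 11.8%.

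**Figure D1:**
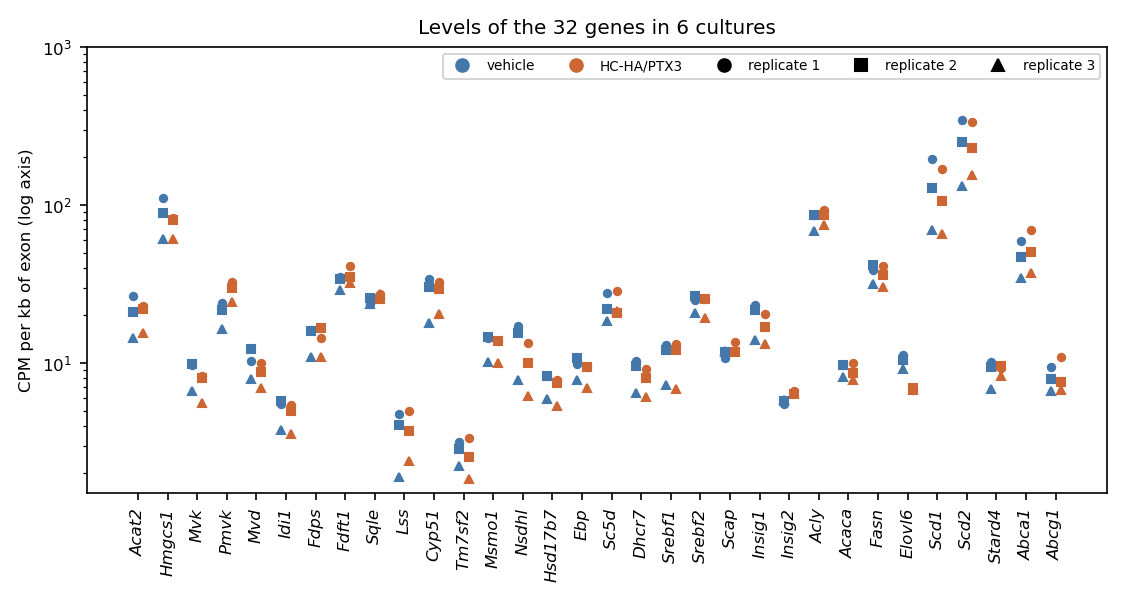
Level of each of the 32 genes in CPM per kilobase of exon (log axis), ordered by role from the mevalonate enzymes at the left to the sterol transport genes at the right. Each point is 1 culture, with colour for treatment and marker shape for replicate number; for most genes the replicate 3 cultures (triangles) lie lowest in both groups.

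After 24 h of HC-HA/PTX3 the pathway as a whole stayed near its vehicle level. Of the 32 genes, 1 was called in either direction, against 8.70% of all tested genes. This gene, the fatty acid elongase Elovl6, was lower (5.38% of all genes were called lower), and 0 were called higher (3.32% of all genes were). Without the fold-change threshold, edgeR's adjusted p was under 0.05 for 3 genes: Pmvk was higher (7.67% of all genes were), and Nsdhl and Elovl6 were lower (11.5% of all genes were). DESeq2 with the same block also called 0 of the 32 higher and 1 lower (2.44% and 5.78% of the 14733 genes to which it gave an adjusted p), and 1 was higher and 2 were lower without the fold-change threshold (6.60% and 12.0%). Limma-voom with the block called 0 higher and 1 lower (3.32% and 5.26% of all genes), and without the fold-change threshold 1 was higher and 3 were lower, Scd1 being added (7.91% and 11.5%). ComBat-seq followed by limma called 0 higher and 1 lower (5.54% and 6.10%), but without the fold-change threshold 4 were higher and 8 lower, against 19.7% and 21.1% of all genes. With edgeR on the 30347 genes of at least 1 count, 0 were called higher and 1 lower (2.63% and 3.98%), and 1 was higher and 4 were lower without the fold-change threshold (5.22% and 8.76%). At an unadjusted p under 0.05 the edgeR test had 9 of 32 genes, near the 33.2% of all genes at that level. The fitted change was above 0 for 13 genes and below 0 for 19, with a median log2 fold change of -0.04 against -0.01 over all tested genes. Under upper-quartile scaling the 2 medians were -0.01 and 0.03, and Acat2 and Srebf1 moved from just below 0 to just above it. For 29 of 32 genes the 95% interval of the fold change lay wholly within 0.5 log2 units of no change. Over all genes this held for 52.1%. These 29 members were the genes whose adjusted p was not under 0.05. Intervals tend to be narrower for genes with more counts. Every member was at 12.1 CPM or more in vehicle, and genes of similar level were not compared. Without the replicate block, edgeR called none of the 32 (0.00% of all genes were called), 2 of the 32 had an unadjusted p under 0.05 (11.4% of all genes), and the smallest adjusted p among them was 0.223.

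**Figure D2:**
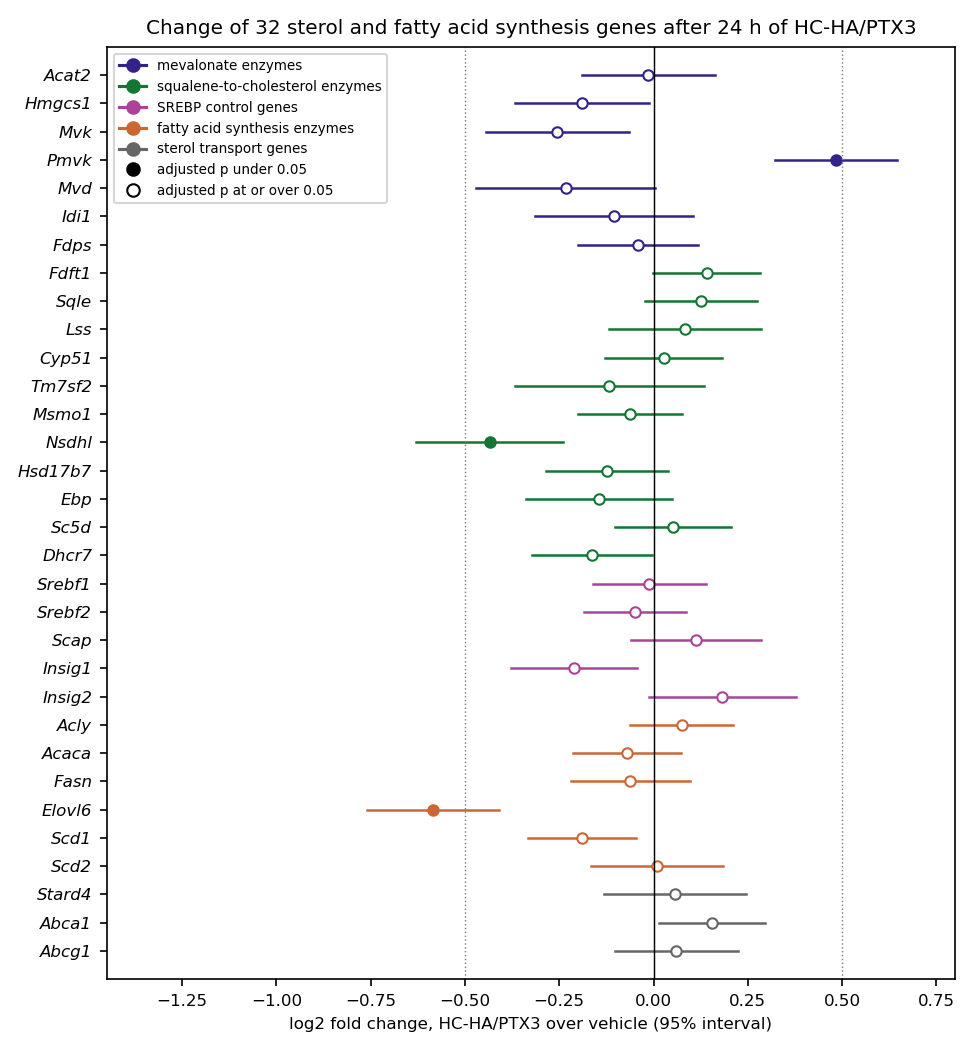
Log2 fold change of each of the 32 genes after HC-HA/PTX3 relative to vehicle, with its 95% interval from the fit with the replicate block (n = 3 cultures per group). Filled points have an adjusted p under 0.05, dotted lines mark the fold-change threshold of 0.5, and 3 genes, Pmvk, Nsdhl and Elovl6, are filled.

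Of the 7 enzymes from acetyl-CoA to farnesyl diphosphate, 1 was higher and 0 were lower at the adjusted threshold of edgeR's test (7.67% and 11.5% of all genes were). Their median log2 fold change was -0.10, with 6 of 7 fitted below 0. Upstream sequences of 3 of these genes, and of Nsdhl, are shown, since Pmvk rose, Nsdhl fell, Mvk had the most matches to CCAAT and Hmgcs1 had the only member window with the sterol response letters. Each holds the 250 bases before a RefSeq transcript start in GRCm38.p6, 5′ to 3′ on the gene's strand. Capitals mark TCACNCCAC, letters of the sterol response element to which SREBPs bind, and CCAAT, the letters bound by NF-Y, on either strand, so that CCAAT on the other strand reads ATTGG. The windows lie at chr13:119690101-119690350 (+) for Hmgcs1, chr5:114444019-114444268 (+) for Mvk, chr3:89454291-89454540 (+) for Pmvk and chrX:72918271-72918520 (+) for Nsdhl.
Hmgcs1: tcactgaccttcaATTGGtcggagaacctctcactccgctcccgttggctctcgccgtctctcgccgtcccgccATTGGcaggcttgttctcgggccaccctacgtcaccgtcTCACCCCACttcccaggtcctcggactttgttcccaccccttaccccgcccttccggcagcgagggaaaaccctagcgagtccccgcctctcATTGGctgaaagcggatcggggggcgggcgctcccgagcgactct
Mvk: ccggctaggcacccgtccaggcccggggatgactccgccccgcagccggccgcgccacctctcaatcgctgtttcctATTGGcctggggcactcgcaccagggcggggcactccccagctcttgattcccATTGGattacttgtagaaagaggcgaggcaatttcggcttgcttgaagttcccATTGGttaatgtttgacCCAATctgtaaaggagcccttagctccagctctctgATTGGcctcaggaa
Pmvk: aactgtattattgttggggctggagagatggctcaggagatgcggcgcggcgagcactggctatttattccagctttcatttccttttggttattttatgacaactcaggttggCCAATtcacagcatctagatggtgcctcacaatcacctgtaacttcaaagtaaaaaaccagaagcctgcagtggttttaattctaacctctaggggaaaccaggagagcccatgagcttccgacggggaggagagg
Nsdhl: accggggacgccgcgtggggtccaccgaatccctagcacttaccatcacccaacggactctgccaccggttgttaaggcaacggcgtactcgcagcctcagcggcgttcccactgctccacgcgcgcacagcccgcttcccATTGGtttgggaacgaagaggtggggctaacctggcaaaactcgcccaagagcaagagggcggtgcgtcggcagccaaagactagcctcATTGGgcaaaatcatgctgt

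The Hmgcs1 window held TCACCCCAC, 137 bases before the start, and 3 CCAAT matches. The Mvk window held 5 CCAAT matches, the Nsdhl window 2 and the Pmvk window 1; a further RefSeq start of Pmvk had no match. Over the 25 of 32 genes with an entry (33 windows), CCAAT was found upstream of 19 genes (76%), against 37.5% of all 27025 genes with an entry and 39.5% of the 13010 tested genes with one. TCACNCCAC was found upstream of 1 of the 25 genes, compared with 1.22% of all genes with an entry. The motifs do not overlap in the printed windows. The window of Elovl6 (chr3:129532136-129532385, +) held neither. A match says only that these letters are there, and no binding was measured. Fdps, Fdft1, Sqle, Scd1, Scd2, Stard4 and Abcg1 had no entry in the set of upstream sequences used here.

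Pmvk encodes phosphomevalonate kinase (mm10, chromosome 3, 89454541 to 89469013, plus strand). Its level was 41.3, 37.3 and 27.9 CPM in vehicle replicates 1, 2 and 3, and 55.7, 51.1 and 41.4 CPM in the same-numbered HC-HA/PTX3 cultures. The lowest treated culture was just above the highest vehicle culture, so the groups did not overlap, and each treated culture exceeded its partner. Pmvk rose with a log2 fold change of 0.48 (SE 0.07, 95% interval 0.32 to 0.64, edgeR adjusted p = 0.0021), just under the threshold of 0.5; it was over it, at 0.51, without the replicate 1 cultures. Without the block its edgeR adjusted p was 0.389; over all 11 alternatives adjusted p ranged from 1.36e-05 to 0.389. Mvk, which acts one step before Pmvk, was lower in all 3 pairs, with a log2 fold change of -0.25 (SE 0.09, edgeR adjusted p = 0.0616), and Mvd, which acts one step after it, was also lower in all 3 pairs, with -0.23 (SE 0.11, edgeR adjusted p = 0.158). Neither passed the threshold, and Mvd was at -0.11 without the replicate 2 cultures and at -0.33 without the replicate 1 cultures. Hmgcs1 had -0.19 (SE 0.08, edgeR adjusted p = 0.129), but -0.070 without the replicate 1 cultures. The thiolase Acat2, Idi1 and farnesyl diphosphate synthase, Fdps, lay between -0.10 and -0.01.

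Of the 11 enzymes from squalene to cholesterol, 1 was lower and 0 were higher at the adjusted threshold (11.5% and 7.67% of all genes were). Their median log2 fold change was -0.06. Nsdhl, the dehydrogenase that takes part in removing the methyl groups at carbon 4 of the sterol ring, lies on chromosome X from 72918557 to 72958514. Its level was 48.6, 44.2 and 22.1 CPM in vehicle replicates 1, 2 and 3, and 38.3, 28.4 and 17.7 CPM in the HC-HA/PTX3 cultures. Each treated culture was below its partner, but replicate 3 was low in both groups and the groups overlapped. Nsdhl fell by 0.43 on the log2 scale (SE 0.09, 95% interval -0.63 to -0.24, edgeR adjusted p = 0.0080). It missed the adjusted threshold without the replicate 2 cultures, at -0.33 and an edgeR adjusted p of 0.0694, and without the block, at 0.709; over the 11 alternatives adjusted p ranged from 0.000107 to 0.709. Its partners in the same demethylation, the methyl oxidase Msmo1 and the ketoreductase Hsd17b7, had log2 fold changes of -0.06 and -0.12, with edgeR adjusted p of 0.522 and 0.265. The other 8 enzymes ranged from -0.16 for Dhcr7, the last reductase of the pathway, to 0.14 for squalene synthase, Fdft1. The sterol isomerase Ebp was lower in all 3 pairs at -0.14 (SE 0.09, edgeR adjusted p = 0.282). Squalene epoxidase, Sqle, a rate-controlling step, was at 0.13 (SE 0.07, edgeR adjusted p = 0.218), and Lss, the lanosterol demethylase Cyp51 and Sc5d lay between 0.03 and 0.08.

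None of the 5 control genes passed the adjusted threshold of edgeR's test (19.2% of all genes did). Only 1 of them, Insig1, had an unadjusted p under 0.05 (33.2% of all genes had). The transcription factors Srebf1 and Srebf2 had log2 fold changes of -0.01 (95% interval -0.16 to 0.14) and -0.05 (95% interval -0.18 to 0.09), and their escort Scap had 0.11 (95% interval -0.06 to 0.29). For Scap the log2 ratios of pairs 1, 2 and 3 were 0.34, -0.00026 and 0.0018. Without the replicate 1 cultures its log2 fold change was 0.0033. Insig1 and Insig2, which retain the SCAP complex, pointed apart. Insig1, itself a target of SREBPs, was lower in all 3 pairs at -0.21 (SE 0.08, edgeR adjusted p = 0.077). Insig2 was higher in all 3 pairs at 0.18 (SE 0.09, edgeR adjusted p = 0.175), from 19.8 ± 0.636 to 22.5 ± 0.569 CPM (SD, n = 3), and its groups did not overlap. Groups of treated above vehicle without overlap were found for 2 of the 32 genes, Pmvk and Insig2, and of treated below vehicle for 1, Elovl6, compared with 9.44% and 8.57% of all genes; in either direction these were 3 of 32 genes against 18.0%. The difference between the changes of Insig1 and Insig2 was not tested.

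Among the 6 enzymes of fatty acid synthesis, Elovl6 was called lower (5.38% of all genes were) and the others did not pass edgeR's adjusted threshold. Elovl6 extends palmitate to stearate and lies on chromosome 3 from 129532355 to 129638495. Its level was 72.5, 67.2 and 58.5 CPM in vehicle replicates 1, 2 and 3, and 43.2, 44.8 and 43.7 CPM in the HC-HA/PTX3 cultures. All treated cultures lay close together and below every vehicle culture. Elovl6 fell by 0.58 on the log2 scale (SE 0.08, 95% interval -0.76 to -0.41, edgeR adjusted p = 0.0013), a fold of 0.667. Without the block the log2 fold change was -0.59 with an edgeR adjusted p of 0.223; over the 11 alternatives adjusted p ranged from 3.09e-10 to 0.223. Scd1, which acts on the product of ELOVL6, was lower in all 3 pairs at -0.19 (SE 0.06, edgeR adjusted p = 0.0666). Its adjusted p was under 0.05 in 3 of the 11 alternatives, namely 0.0417 with limma-voom and the block, 0.0055 with ComBat-seq followed by limma and 0.0054 with edgeR on all genes of at least 1 count, and ranged from 0.0054 to 0.914 over the 11. Scd2 was at 0.01 (95% interval -0.17 to 0.18). Acly, acetyl-CoA carboxylase (Acaca) and Fasn, which act before the elongase, were at 0.08, -0.07 and -0.06, with 95% intervals that reached no further than -0.22 and 0.21.

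**Figure D3:**
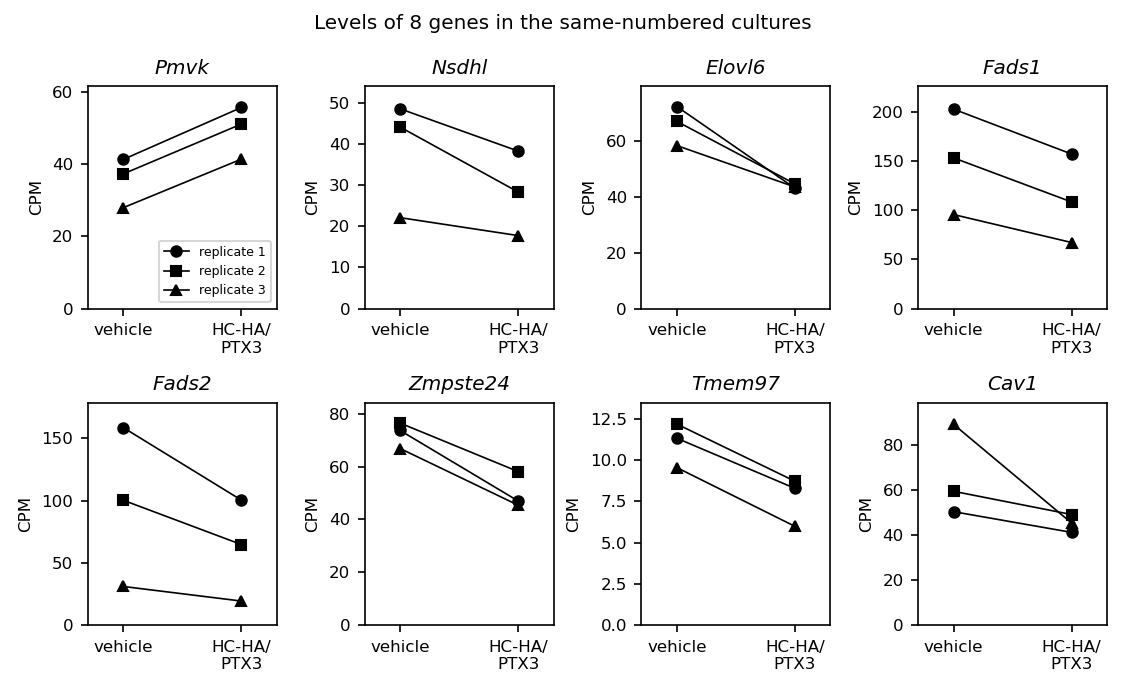
Levels in CPM of the 3 member genes with an adjusted p under 0.05 (Pmvk, Nsdhl, Elovl6) and of 5 related genes, with a line joining the vehicle and HC-HA/PTX3 cultures of the same replicate number (n = 3 pairs). The line rises in all 3 pairs for Pmvk and falls in all 3 pairs for the other 7 genes; axes start at 0 and differ between panels.

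The 3 sterol transport genes had log2 fold changes above 0 without passing the adjusted threshold of edgeR's test, which 19.2% of all genes passed. The sign turned for Stard4 without the replicate 3 cultures (-0.036) and for Abcg1 without the replicate 1 cultures (-0.0093). Abca1 and Abcg1, exporters of cholesterol and known targets of the oxysterol receptors LXR, were at 0.15 (SE 0.06, edgeR adjusted p = 0.117) and 0.06 (SE 0.07, edgeR adjusted p = 0.611). Abca1 was higher in all 3 pairs, from 611, 485 and 358 CPM in vehicle replicates 1, 2 and 3 to 723, 522 and 387 CPM after HC-HA/PTX3. The intracellular sterol carrier Stard4 was at 0.06, with an interval from -0.13 to 0.25. Over the whole set, 5 of 32 genes were higher and 12 were lower in all 3 pairs, against 25.2% and 28.7% of all genes, so that 17 of 32 kept 1 direction in all pairs, close to the 53.9% of all genes.

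For 27 of the 32 genes more of the variance of log2 CPM lay between replicate numbers than between treatments. Over all genes this held for 12998 of the 18277 tested. Members the other way round were Pmvk, Sqle, Scap, Insig2 and Elovl6. For Elovl6, 4.33% lay between replicate numbers and 91.0% between treatments, and for Pmvk 42.5% and 56.7%. For the median member gene, 89.8% of the variance of log2 CPM over the 6 cultures lay between replicate numbers and 5.63% between treatments, compared with 59.0% and 17.7% for the median tested gene. Replicate 3 was below replicate 1 in both groups for 29 of 32 genes, against 38.3% of all genes, by a median of -0.55 log2 units in vehicle and -0.50 in HC-HA/PTX3. In a test of the replicate number in the same edgeR fit, added after these values had been seen, 28 of 32 genes had an adjusted p under 0.05, against 33.8% of all genes; the 4 others were Sqle, Scap, Insig2 and Elovl6. The sum over the 32 genes was 6774, 5637 and 3818 CPM in vehicle replicates 1, 2 and 3, and 6621, 5245 and 3994 CPM in HC-HA/PTX3 replicates 1, 2 and 3. Scd2 had the highest level in both replicate 1 cultures, with 1898, 1364 and 723 CPM in vehicle and 1818, 1245 and 843 CPM in HC-HA/PTX3. The labels do not say what the numbers stand for.

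Markers of several cell types moved with the replicate number or the treatment, and in bulk RNA fewer cells of a type and less RNA per cell cannot be told apart. The satellite glia list summed to 2425, 1464 and 685 CPM in vehicle replicates 1, 2 and 3, and to 2325, 1517 and 732 CPM in HC-HA/PTX3. All 9 of its genes were tested, all 9 were lower in replicate 3 than in replicate 1 in both groups, and none was at 0. Its most abundant gene, Apoe, was at 672, 239 and 96.7 CPM in vehicle and at 570, 240 and 73.4 CPM in HC-HA/PTX3, and 0 of 9 genes were called by edgeR. Without the fold-change threshold Fabp7 (-0.40) and Kcnj10 (-0.34) were lower and Glul (0.28) and Ednrb (0.34) higher, named after their values were seen; these were 4 of 9 genes against 19.2% of all genes, and 6 of 9 had an unadjusted p under 0.05, against 33.2%. The 9 myelinating Schwann cell genes, led by Pmp22 at 475 ± 60.4 CPM, summed to 1045, 779 and 613 CPM in vehicle and 917, 666 and 580 CPM in HC-HA/PTX3. Of these 9 genes, 1 was called lower by edgeR and 0 higher (5.38% and 3.32% of all genes were). Without the fold-change threshold 3 of the 9 were lower and 0 higher (11.5% and 7.67% of all genes were), and 4 had an unadjusted p under 0.05; the lower ones included Mbp (-0.31) and Egr2 (-0.42), named after their values were seen. All 9 Schwann cell genes were also lower in replicate 3 than in replicate 1 in both groups, as were 10 of 10 proliferation genes and 8 of 9 fibroblast genes, compared with 6 of 14 sensory neuron, 3 of 11 macrophage and 1 of 7 endothelial genes. Between replicates 3 and 1 the median difference of the proliferation genes was -1.19 log2 units in vehicle and -2.07 in HC-HA/PTX3, that of the satellite glia genes -2.76 and -2.88 and that of the Schwann cell genes -1.20 and -1.35. The part of any of these cells in the replicate differences of the member genes was not tested.

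Proliferation and fibroblast markers moved with treatment. The background to each count in this paragraph is 5.38% of all genes called lower, 3.32% called higher and 33.2% with an unadjusted p under 0.05. All 10 proliferation genes were called lower (5.38% of all genes were), with a median log2 fold change of -1.41; they summed to 831, 603 and 294 CPM in vehicle and 305, 322 and 79.1 CPM in HC-HA/PTX3, and the most abundant, Mki67, fell by 1.72. Of 9 fibroblast genes, 4 were called lower, namely Col1a1 (-1.62), Col1a2 (-1.11), Col3a1 (-0.96) and Fbln1 (-0.87), and Col3a1 was the most abundant. The fibroblast list summed to 2732, 2904 and 1342 CPM in vehicle and 1723, 2088 and 650 CPM in HC-HA/PTX3. Growing cells are known to make sterols and fatty acids for new membrane, and the part of these cells in the lower Elovl6 and Nsdhl was not tested. Of 11 macrophage genes, 3 were called lower, C1qa, C1qb and Cd163, with sums of 69.4, 89.5 and 72.3 CPM in vehicle and 60.9, 85.6 and 51.3 CPM in HC-HA/PTX3, and Cd68 was the most abundant. Sensory neuron markers, 14 of 14 tested, summed to 10166, 8352 and 9180 CPM in vehicle and 10515, 8757 and 10251 CPM in HC-HA/PTX3, with Nefl the most abundant at 2146 ± 510.2 CPM and Tac1, a neuropeptide precursor, called higher, from 65.0 ± 12.2 to 131 ± 25.8 CPM. The 7 endothelial genes, led by Cdh5, summed to 257, 275 and 310 CPM in vehicle and 264, 311 and 283 CPM in HC-HA/PTX3, with none called by edgeR and 0 with an unadjusted p under 0.05. Adipocyte markers, of interest because fat cells carry much Scd1 and Fasn, were near 0: Lep had no count in any culture, Fabp4, the most abundant, was at 0.762 ± 0.378 CPM in vehicle, and 1 of 7 genes passed the filter. The adipocyte list summed to 0.375, 2.14 and 1.38 CPM in vehicle and 0.808, 1.66 and 1.52 CPM in HC-HA/PTX3.

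**Figure D4:**
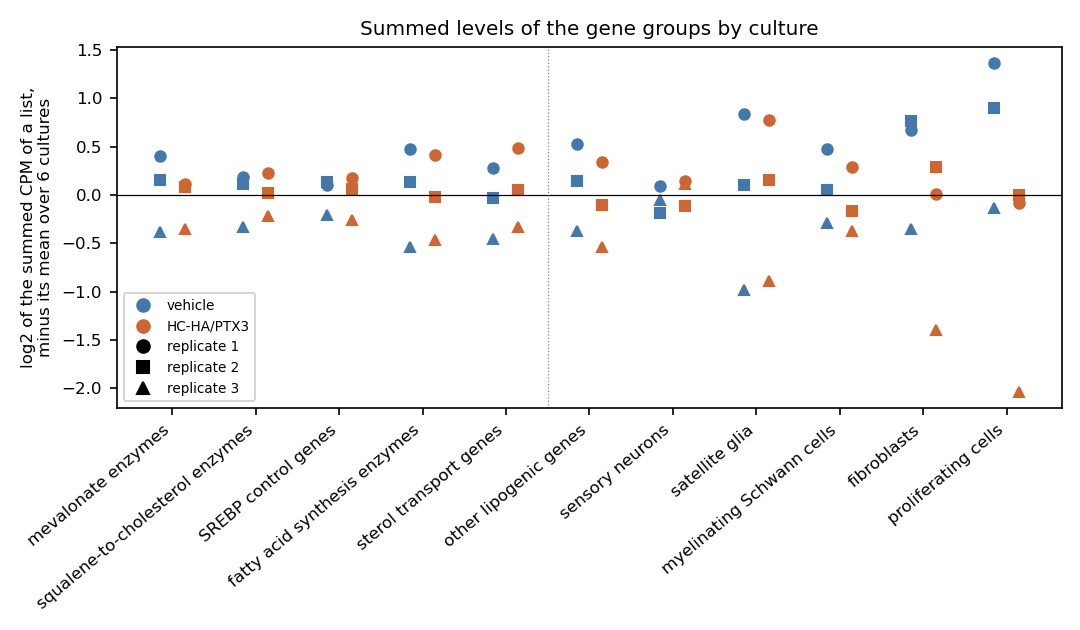
Summed CPM of the 5 member groups (left of the dotted line), of the other lipogenic genes and of 5 cell marker lists in each culture, as log2 minus the mean of the list over the 6 cultures. Replicate 3 cultures (triangles) are lowest in all 5 member groups and in the satellite glia list in both treatments, and the proliferation list is lower after HC-HA/PTX3 than in the vehicle culture of the same number in all 3 pairs.

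The 7 further lists of 76 genes from neighbouring pathways, all tested, held 4 genes called lower and 0 called higher by edgeR; without the fold-change threshold 10 were lower and 7 higher, and 35 had an unadjusted p under 0.05. Over all tested genes 5.38% were called lower and 3.32% higher, and 33.2% had an unadjusted p under 0.05. Without the fold-change threshold 11.5% were lower and 7.67% higher. These shares from edgeR's main fit are the background to each list count of that fit that follows. DESeq2 with the block called 5 lower and 0 higher (5.78% and 2.44% of the genes to which it gave an adjusted p). ComBat-seq followed by limma called 4 lower and 1 higher (6.10% and 5.54% of all genes). Leaving out replicate 1, 2 or 3 gave 3, 5 and 2 genes called lower (3.4%, 5.35% and 4.26% of all genes). Without the fold-change threshold these fits gave 7, 7 and 6 lower (5.15%, 7.3% and 7.09% of all genes). They gave 1, 2 and 2 higher (3.05%, 4.48% and 4.9% of all genes). Among 13 other lipogenic genes, with a median log2 fold change of -0.18, Fads2 and Tmem97 were called lower and Fads1 and Gpam passed without the fold-change threshold. Fads2, the delta-6 desaturase of polyunsaturated fatty acids, was at 159, 100.3 and 31.0 CPM in vehicle replicates 1, 2 and 3 and at 100.4, 64.7 and 19.3 CPM in HC-HA/PTX3, a fall in each pair with groups that overlapped. Fads2 fell by 0.66 on the log2 scale (SE 0.06, edgeR adjusted p = 0.000407; adjusted p = 0.790 without the block). Fads1, the delta-5 desaturase that lies beside Fads2 on chromosome 19 and is named after its values were seen, went from 203, 153 and 95.7 CPM to 157, 109 and 67.2 CPM, a log2 fold change of -0.46 (SE 0.06, edgeR adjusted p = 0.00139). Tmem97, which encodes the sigma-2 receptor, fell by 0.53 (SE 0.11, edgeR adjusted p = 0.0104; 0.0604 without replicate 1 and 0.383 without the block). Its log2 fold change was under the threshold in size, at -0.45, without the replicate 3 cultures. The most abundant gene of the list, malic enzyme Me1, was at 178 ± 31.5 CPM in vehicle, with a log2 fold change of -0.18 (edgeR adjusted p = 0.0661).

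In the isoprenoid branch, which uses farnesyl diphosphate for prenylation, dolichol and coenzyme Q, 3 of 12 genes were lower and 1 was higher at the adjusted threshold, with a median of -0.12. Zmpste24, the protease that processes prenylated prelamin A, was called lower at -0.53 (SE 0.07, edgeR adjusted p = 0.00141; 0.253 without the block), with all treated cultures below all vehicle cultures. Without the replicate 1 cultures it was at -0.47, short of the fold-change threshold. The others, named after their values were seen, were the coenzyme Q genes Pdss1 (-0.50) and Coq2 (-0.29) and the methyltransferase Icmt (0.30). Nus1, of dolichol synthesis, was the most abundant at 109 ± 5.42 CPM in vehicle. In the list for SREBP cleavage and INSIG turnover, 2 of 10 genes were lower and 1 was higher. The lower ones were the site-2 protease Mbtps2 (-0.32) and the ubiquitin ligase Rnf145 (-0.30), and Ubxn8 (0.30) was higher. These 3 genes are also named after their values were seen. Ubxn8 was placed in the list by its symbol, and no role in SREBP cleavage or INSIG turnover is claimed for it. The coat protein Sec23a was the most abundant at 144 ± 10.0 CPM, and the median was -0.05.

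Of 8 LXR receptors and partners, 1 passed the adjusted threshold, the transporter Abca7 at 0.26 (named after its value was seen), with a median of 0.04 and Abca2 the most abundant at 134 ± 20.2 CPM. Of 16 genes of sterol uptake, storage and oxidation, 1 was called lower, Cav1, and none was higher, with a median of 0.08. Cav1, which encodes the caveolar protein caveolin-1, was at 50.5, 59.6 and 89.4 CPM in vehicle replicates 1, 2 and 3 and at 41.3, 49.2 and 45.4 CPM in HC-HA/PTX3. The largest drop was in replicate 3, and the log2 fold change of -0.52 (SE 0.12, edgeR adjusted p = 0.0161) became -0.27 (adjusted p = 0.0845) without the replicate 3 cultures, and its adjusted p was 0.400 without the block. It was also short of the fold-change threshold under upper-quartile scaling, at -0.48, and with ComBat-seq followed by limma, at -0.46. The most abundant gene, the lipoprotein receptor Lrp1, was at 411 ± 89.6 CPM, with a log2 fold change of 0.16 (edgeR adjusted p = 0.109). None of 5 ketone body genes passed edgeR's adjusted threshold, although 4 had an unadjusted p under 0.05, and Oxct1 was the most abundant at 122 ± 24.9 CPM, with a median over the list of -0.13. Of 12 fatty acid oxidation genes, 4 were higher and 0 lower at the adjusted threshold (6 had an unadjusted p under 0.05), with a median of 0.10. They included Cpt1a (0.24), which commits fatty acids to mitochondria, Slc25a20 (0.32), the carnitine carrier, and Acadm (0.28), an acyl-CoA dehydrogenase, all named after their values were seen. Acadl was the most abundant at 175 ± 29.0 CPM, with a log2 fold change of 0.13. Over the 11 alternatives the adjusted p of the 4 called genes ranged from 1.09e-14 to 0.790 for Fads2, from 3.92e-09 to 0.253 for Zmpste24, from 0.000644 to 0.383 for Tmem97 and from 4.16e-08 to 0.400 for Cav1.

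**Figure D5:**
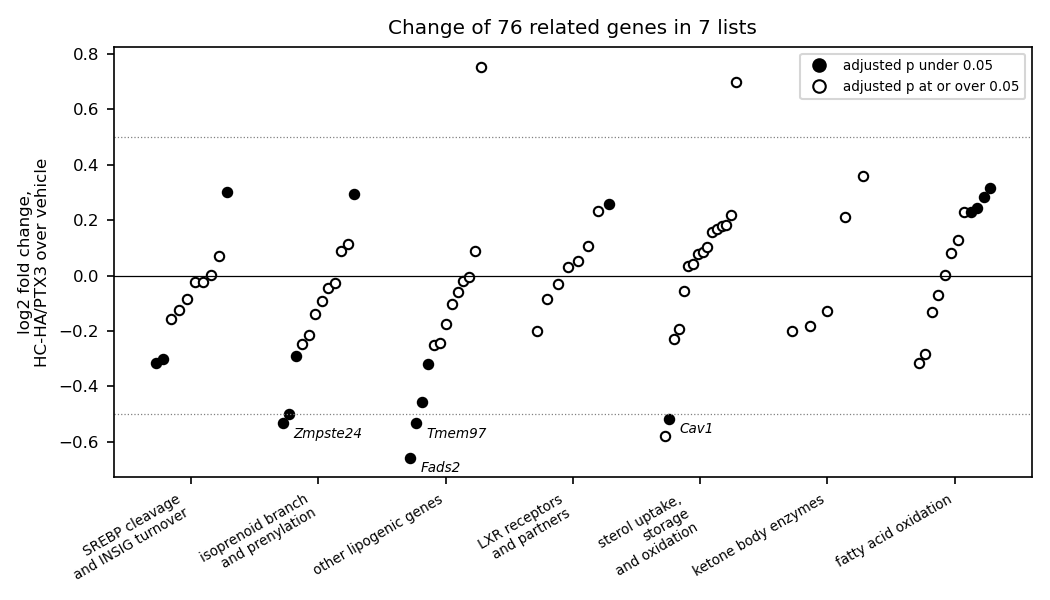
Log2 fold change after HC-HA/PTX3 of 76 related genes in 7 lists, each point 1 gene, ordered by value within a list. Filled points have an adjusted p under 0.05, dotted lines mark the threshold of 0.5, and the 4 named genes (Zmpste24, Fads2, Tmem97, Cav1) passed both; open points beyond the lines did not pass the adjusted threshold.

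The strand setting of the counting is not given in the sources used here, so reads from overlapping genes on either strand could not be told apart. Exons of 11 of the 32 genes overlapped another annotated gene in GENCODE M21, and more than 5% of the 50-base stretches of the transcript were shared with another gene for 7 genes, Acat2, Hmgcs1, Idi1, Fdps, Fdft1, Scap and Acaca. Their counts are uncertain to that extent. The share was 86.4% for Fdps, 52.6% for Acaca, 45.9% for Acat2, 30.7% for Fdft1, 30.5% for Idi1, 13.6% for Hmgcs1 and 13.1% for Scap. Of the genes that shared most with each, Acat3 (45.9% of Acat2) and Ctsb (19.9% of Fdft1) are in the count tables. Pmvk and Nsdhl shared none and had no overlap. Elovl6 shared 4.39%, and 0.529% of its exon bases overlapped an antisense gene.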

How the data were processed

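RNA was measured in 6 cultures by sequencing of ribosomal RNA-depleted libraries. The authors aligned reads to mm10 and deposited raw counts per gene, made with featureCounts and not normalized. The methods and the submitters' processing notes name HISAT2, whereas the file headers name RNA STAR. Groups and replicate numbers came from the sample labels. The methods fit a batch term beside the condition without listing the batches, and the replicate number was taken as the batch here.

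Counts were analysed in R 4.3.3 with edgeR 4.0.16 (filterByExpr, TMM, glmQLFit and glmQLFTest, replicate number plus treatment) and Benjamini-Hochberg adjustment over 18277 genes. Alternatives were no block, RLE and upper-quartile scaling, low-count filters of 1 count in all or of 10 counts in each culture, DESeq2 1.42.0, limma-voom (limma 3.58.1), ComBat-seq (sva 3.50.0) followed by limma, and each replicate number left out. The code was tested on simulated data. Log2 CPM used a prior count of 2. Standard errors came from the F statistics, with 95% intervals from the t distribution on the fitted degrees of freedom.

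The pairing was checked on the data. After the group mean was subtracted from log2 CPM, cultures with the same number correlated across genes at 0.631, 0.536 and 0.774, all over the limit of 0.1, and other vehicle and treated cultures at -0.613 to 0.148. No library was a duplicate of another, because chi-square divided by its degrees of freedom was 34.1 to 120.0 between cultures of a group and 19.4 to 143 between cultures of different groups.

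Exon lengths and positions came from GENCODE M21 and upstream sequences from RefSeq. All 32 members are named, with values per culture for those past the adjusted threshold; of the 7 pathway lists, the called genes and the most abundant; of the 8 cell lists, the most abundant gene and called genes, up to 5. Each listed gene is in 1 list. Single-gene results for some genes of these lists that meet this rule, or that a count includes, are not reported here. The members and lists were chosen with earlier results of these data known. The test of the replicate number and the levels per kilobase of the longest coding transcript were added after the data had been seen.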

Additional observations from a re-analysis of the deposited data

How the results depend on the processing

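The least abundant of the 32 genes, Tm7sf2, was at 12.1 CPM in vehicle, and what depth limits was not tested. The direction of Elovl6, Pmvk and Nsdhl was the same under all 11 alternatives, and the causes of the differences below were not tested. Without the replicate block, 0 genes were called in place of 1591, members called lower went from 1 to 0, members past the adjusted threshold from 1 higher and 2 lower to 0 and 0, and pathway genes from 4 called lower, 7 higher and 10 lower to 0, 0 and 0; no gene of any list was called without it. ComBat-seq followed by limma, whose spread ignores the batch step, gave 4 members higher and 8 lower at the adjusted threshold, 1 pathway gene called higher, and 16 of 76 higher and 20 lower, where 19.7% and 21.1% of all genes were higher and lower. Upper-quartile scaling called 1 member higher, Pmvk at 0.52 (3.64% of all genes were called higher). With all genes of at least 1 count, 4 members were lower at the adjusted threshold (8.76% of all genes were), Hmgcs1 and Scd1 being added. With limma-voom 3 were lower (11.5% of all genes were), Scd1 being added.

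Leaving out a replicate number gave 878 (without replicate 1) to 1571 genes called. Of the members, 0 to 1 were called higher and 1 to 2 were lower at the adjusted threshold. Of the pathway genes, 2 to 5 were called lower, and 1 to 2 were higher and 6 to 7 lower at the adjusted threshold. Over all genes in these fits, 1.34% to 3.15% were called higher and 3.4% to 5.35% called lower. At the adjusted threshold alone, 3.05% to 4.9% of all genes were higher and 5.15% to 7.3% lower.

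Dividing by the longest coding transcript in place of all exons, chosen after the data were seen, moved the vehicle level per kb by more than 1 SD for 18 of 32 genes, by a ratio of up to 3.04 (Fdps).

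Signs turned only for genes not past the threshold. The log2 fold change turned without the block for Srebf1 (0.0019) and Scd2 (-0.029), under upper-quartile scaling for Acat2 (0.018) and Srebf1 (0.021), with ComBat-seq for Acat2 (0.00063), Srebf1 (0.0041) and Scd2 (-0.0063), and with the wider filter for Scd2 (-0.0083). Leave-one-out ranges that crossed 0 ran from -0.062 to 0.083 for Acat2, -0.088 to 0.030 for Fdps, -0.015 to 0.18 for Lss, -0.042 to 0.077 for Cyp51, -0.0085 to 0.11 for Sc5d, -0.033 to 0.043 for Srebf1, -0.14 to 0.0086 for Fasn, -0.081 to 0.076 for Scd2, -0.036 to 0.15 for Stard4 and -0.0093 to 0.12 for Abcg1. Among ranges that did not cross 0 were -0.26 to -0.070 for Hmgcs1, -0.33 to -0.11 for Mvd and -0.14 to -0.053 for Idi1. Others were -0.22 to -0.028 for Tm7sf2, -0.082 to -0.010 for Srebf2 and 0.0033 to 0.18 for Scap. Those of Insig1, Acaca and Sqle were -0.26 to -0.14, -0.12 to -0.022 and 0.093 to 0.20.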
